A study of Mus musculus with 56 samples.

Results

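RNA bound to tagged ribosomes of microglia that lacked the fractalkine receptor Cx3cr1 was compared with that of microglia with 1 working copy of the gene, in the cortex of mouse pups whose whisker follicles had been destroyed. The comparison rests on 18 bound libraries of the 56 in the series, 10 from knockout pups and 8 from heterozygous pups, and was averaged over deprived and control tissue. The knockout pups carried CreErt2 in place of both copies of Cx3cr1 (Cx3cr1CreErt2/CreErt2(Litt)) and the Cre-dependent ribosome tag Eef1a1LSL.eGFPL10a/+. The heterozygous pups carried 1 CreErt2 copy (Cx3cr1CreErt2/+(Litt)) and the same tag allele. Both lines received 50 µg tamoxifen daily on P1 to P3 and a cautery of the right whisker follicles at P4, and were sampled at P5, 24 h later. The Cre sits in a gene that microglia and other brain macrophages use, so tagged ribosomes can come from both, and the knockout line also carries 1 more copy of the Cre insertion. The 5 knockout mice (3 female and 2 male) each gave 1 deprived and 1 control piece. Of the 4 heterozygous mice (3 female and 1 male), mice 14 and 15 gave 1 of each, both pieces of mouse 17 are labelled deprived, and both pieces of mouse 21 are labelled control. In the other 7 mice the piece marked L is deprived and that marked R is control, the side opposite the cautery being the deprived one. Piece R of mouse 17 and piece L of mouse 21 depart from this, and whether their labels are as intended is not known. The groups follow the labels, so 4 of the 8 heterozygous libraries, and each heterozygous value given by condition, rest on these 2 mice.

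Genotype coincides with the count table and with the RNA type in the labels, polyA RNA for knockout and total RNA for heterozygous pups, so a genotype difference and a difference between these sets of libraries cannot be told apart. The protocol text is the same for both lines and names the same kits, and mitochondrial rRNA made up 26.8% ± 2.55 of unbound counts in knockout and 24.3% ± 2.46 in heterozygous libraries (SD, n = 10 and 8). Library totals were 35792651 to 53872463 counts in knockout and 39936947 to 49690060 in heterozygous bound libraries. Summed over the 2 pieces of a mouse, 47 genes of resting microglia made up 545 to 1090 CPM (counts scaled to a library of 1000000) in knockout bound RNA and 290 to 309 CPM in knockout unbound RNA. In heterozygous mice they made up 806 to 1240 CPM in bound and 282 to 328 CPM in unbound RNA, so bound RNA held more microglial RNA in every mouse. It was not pure, since 16 neuronal genes summed to 14000 to 15300 CPM in knockout and 12800 to 15400 CPM in heterozygous bound RNA. In unbound RNA they summed to 9980 to 10900 and 9950 to 10800 CPM. The higher sum in bound RNA leans on the neurofilament gene Nefl, at 3790 to 5330 CPM in bound and 156 to 210 CPM in unbound RNA. The members went both ways, with Grin2b higher and Syt1 lower in bound RNA in every mouse. The sums thus do not show that the 16 genes as a group were higher in bound RNA. Mitochondrial rRNA made up 1.91% of knockout and 1.68% of heterozygous bound counts, and its larger share of unbound counts lowers all other CPM there. In such bulk samples fewer cells of a type and less RNA per cell cannot be told apart.

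Microglia are the resident macrophages of the brain, and in development they prune synapses and clear debris. They sense the neuronal chemokine fractalkine, the product of Cx3cl1, through Cx3cr1. Type I interferons act through the receptor pair Ifnar1 and Ifnar2, which switches on transcription factors such as Stat2 and Irf9, and these bind a short element in the promoters of antiviral genes such as Isg15, Oasl2 and Ifit1.

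The targeted gene was read first. Cx3cr1 had a lowest, median and highest level of 0.363, 0.836 and 1.37 CPM in the 10 knockout libraries, against 6.99, 10.1 and 13.3 CPM in the 8 heterozygous libraries. All knockout libraries lay below all heterozygous ones. The log2 difference was -3.56 ± 0.16 (SE; adjusted p = 1.1e-11, edgeR quasi-likelihood test with Benjamini-Hochberg adjustment), and -4.04 ± 0.25 in unbound RNA (adjusted p = 3e-09). The antisense gene Gm33858 overlaps Cx3cr1, and whether the counting used strand is not given in the sources used here. The ligand gene Cx3cl1 averaged 18.9 ± 3.64 CPM in knockout mice and 19.1 ± 0.734 CPM in heterozygous mice (SD, n = 5 and 4), with a log2 difference of -0.01 ± 0.11. Adam10 and Adam17, the proteases that shed fractalkine from the neuronal surface, differed by 0.06 and 0.02 on the log2 scale.

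Across the genome 11 of 19601 genes passed an adjusted p of 0.05 (0.0561%), 4 of them higher in knockout bound RNA (0.0204%) and 7 lower (0.0357%). At an unadjusted p under 0.05, 793 genes were higher (4.05%) and 672 lower (3.43%). Besides Cx3cr1, the lower genes were the interferon-induced Isg15, Oasl2, Rtp4 and Oas1a and the predicted genes Gm8210 and Gm7004. The higher genes were the zinc-finger gene Zfp457, the transcription factor Tcf7l2, the vomeronasal receptor gene Vmn1r55 and the long noncoding RNA gene Gm49980. The p-values count 2 libraries from each mouse as separate samples. When the libraries of each mouse were summed, Cx3cr1 alone passed (1 of 20630 genes, 0.00485%; adjusted p = 8.6e-07). With the mouse as a random block 7 genes passed, namely Cx3cr1, Zfp457, Gm49980, Oasl2, Isg15, Rtp4 and Zfp429. Without heterozygous mouse 17 or mouse 21 there were 3 calls each, and without mouse 14 there were 47.

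Nearly all genes induced by interferon had a lower level in knockout bound RNA, and few of them passed the threshold singly. Of 42 listed genes, all of them tested, 4 were called lower and none higher, 41 had a difference below 0, and 36 were lower at an unadjusted p under 0.05, against 3.43% of all genes tested. Their median log2 difference was -0.48, against 0.01 over all genes tested. In 12 of the 42 every knockout mouse lay below every heterozygous mouse, a pattern found in 0.791% of all genes tested. These 12 were Isg15, Oasl2, Oas1a, Rtp4, Oas1g, Oasl1, Oas2, Parp9, Samd9l, Eif2ak2, Mx2 and Trim25. Without heterozygous mouse 17 none of the 42 passed and their median was -0.36, and without heterozygous mouse 21 none passed and it was -0.42. With mice 14 and 15 as the only heterozygous animals none passed and it was -0.31. The 36 genes lower at an unadjusted p under 0.05 became 27 without mouse 17, 29 without mouse 21 and 17 with mice 14 and 15 only. Over summed mice they were 33. The list was chosen with earlier results of these data known, so its contrast with all genes is a description.

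Isg15 encodes a ubiquitin-like protein that is joined to other proteins during antiviral responses, and the gene lies at chr4:156199424-156200818 (GRCm38, minus strand). Its level was 2.51, 2.45, 3.5, 3.38 and 2.85 CPM in the deprived pieces of knockout mice 7, 12, 18, 19 and 22, against 5.09, 6.22, 7.91 and 10.1 CPM in the deprived pieces of heterozygous mice 14, 15, 17 and 17. In control pieces it was 3.3, 3.44, 2.84, 3.65 and 2.43 CPM in the same knockout mice, against 3.75, 3.87, 6.75 and 4.87 CPM in heterozygous mice 14, 15, 21 and 21. No knockout library reached the lowest heterozygous one, and the gap was narrow for the control pieces of mice 14 and 15. The log2 difference was -0.97 ± 0.14 (adjusted p = 0.004, edgeR with Benjamini-Hochberg adjustment), with an adjusted p of 0.3 over summed mice, 0.035 with the mouse block, 0.11 without heterozygous mouse 17 and 0.061 without heterozygous mouse 21.

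Oasl2 (chr5:114896936-114912234) is a member of the oligoadenylate synthetase-like family. Its level in deprived pieces was 94.0, 106 and 118 CPM in knockout mice (lowest, median and highest of 5), against 174, 213, 295 and 248 CPM in heterozygous mice 14, 15, 17 and 17. In control pieces it was 71.7, 105 and 135 CPM in knockout mice, against 105, 152, 238 and 142 CPM in heterozygous mice 14, 15, 21 and 21. The groups were apart in deprived pieces and overlapped in control pieces, where mouse 14 lay at the knockout median. The log2 difference was -0.89 ± 0.14 (adjusted p = 0.0048, edgeR with Benjamini-Hochberg adjustment; 0.23 over summed mice, 0.025 with the mouse block). It too missed the threshold without mouse 17, at 0.11, and without mouse 21, at 0.061.

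Rtp4 encodes a chaperone that helps certain receptors reach the cell surface. It had 10.2, 14.6 and 17.2 CPM in knockout libraries (lowest, median and highest of 10), against 15.4, 21.2 and 33.1 CPM in heterozygous libraries (of 8). The libraries overlapped, with the control pieces of mice 14 and 15 and one control piece of mouse 21 in the knockout range, while the mouse means did not overlap. Its log2 difference was -0.65 ± 0.11 (adjusted p = 0.015, edgeR with Benjamini-Hochberg adjustment; 0.78 over summed mice and 0.035 with the block), and 0.38 without mouse 17, 0.12 without mouse 21 and 0.063 without knockout mouse 22. The predicted gene Gm45338 overlaps it.

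Oas1a (chr5:120896256-120907521) encodes an oligoadenylate synthetase, an enzyme that senses double-stranded RNA and activates RNase L. It had 1.41, 2.76 and 3.36 CPM in knockout libraries, against 3.26, 4.74 and 7.16 CPM in heterozygous libraries, and only the control pieces of mice 18 and 21 crossed. The log2 difference was -0.84 ± 0.15 (adjusted p = 0.027, edgeR with Benjamini-Hochberg adjustment; 0.78 over summed mice and 0.053 with the block). It passed in 12 of 18 fits that left out 1 library and in 3 of 9 that left out 1 mouse. Oas1a has close paralogs, among them Oas1g, which had a log2 difference of -1.18 ± 0.25 and did not pass, and reads may be split between them.

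**Figure D1:**
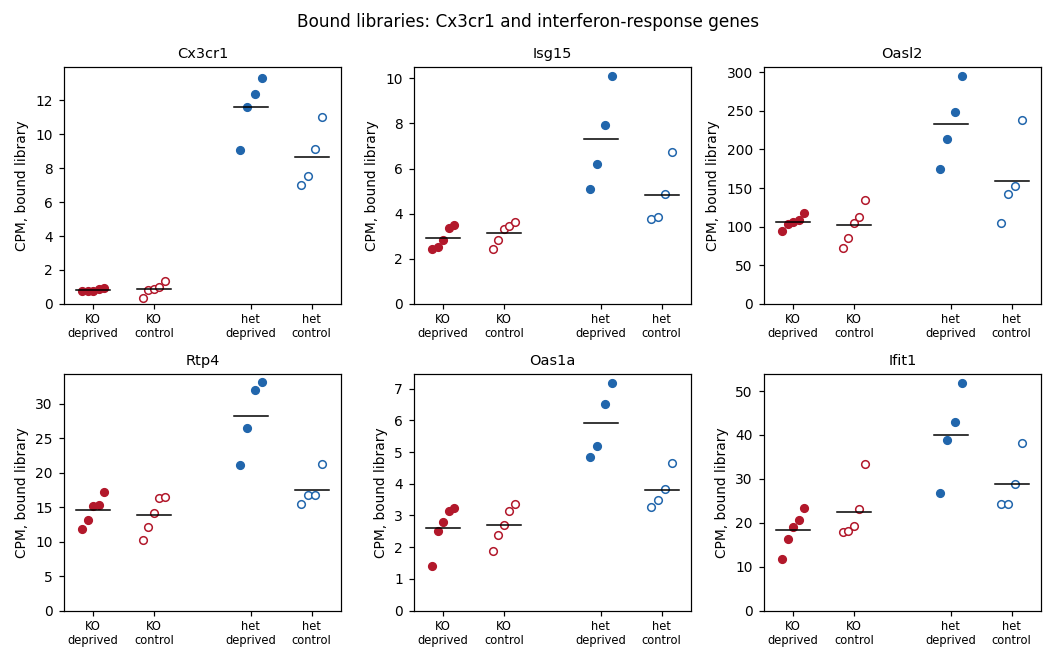
Levels of Cx3cr1, Isg15, Oasl2, Rtp4, Oas1a and Ifit1 in each bound library, in CPM on linear axes from 0; columns run knockout deprived, knockout control, heterozygous deprived and heterozygous control, filled points are deprived, open points control, and lines are means. Knockout Isg15 lay between 2.43 and 3.65 CPM in both conditions, while heterozygous Isg15 reached 10.1 CPM in deprived and 6.75 CPM in control pieces.

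The promoters of 3 interferon-induced genes are printed because they carry repeats of the element bound by interferon-activated transcription factors. They are RefSeq sequence of build GRCm38.p6, the 250 bases before the annotated start, 5′ to 3′ on the strand of the gene. Capitals mark matches to GAAA, any 2 bases and GAAA, or on the other strand TTTC, any 2 bases and TTTC, and overlapping matches run together. Isg15 (chr4:156200819-156201068, minus strand) holds 3 matches, Oas1a (chr5:120907526-120907775, minus strand) holds 2, and Ifit1 (chr19:34640639-34640888, plus strand) holds 2.
Isg15: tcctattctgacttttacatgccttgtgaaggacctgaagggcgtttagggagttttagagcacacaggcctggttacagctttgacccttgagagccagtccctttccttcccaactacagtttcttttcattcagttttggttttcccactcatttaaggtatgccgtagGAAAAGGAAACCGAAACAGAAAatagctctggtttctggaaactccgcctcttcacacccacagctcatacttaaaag
Oas1a: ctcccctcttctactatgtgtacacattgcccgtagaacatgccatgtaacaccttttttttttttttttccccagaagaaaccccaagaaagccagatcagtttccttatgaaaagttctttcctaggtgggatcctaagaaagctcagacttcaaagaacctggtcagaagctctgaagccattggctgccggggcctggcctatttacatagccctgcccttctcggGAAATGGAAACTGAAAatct
Ifit1: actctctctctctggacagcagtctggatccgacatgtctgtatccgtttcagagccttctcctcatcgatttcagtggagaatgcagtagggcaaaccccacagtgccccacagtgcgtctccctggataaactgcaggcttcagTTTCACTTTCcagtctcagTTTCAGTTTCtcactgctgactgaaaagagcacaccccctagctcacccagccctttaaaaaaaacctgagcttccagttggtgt
The motif was found in 936 of 27025 genes with a promoter entry (3.46%) and in 16 of the 33 interferon-induced genes that had one. Oasl2 has no match in its window.

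Of the other interferon-induced effectors, none passed the threshold in bound RNA. Ifit1, which binds foreign RNA ends, averaged 20.3 ± 5.14 CPM in knockout mice and 34.6 ± 9.16 CPM in heterozygous mice (SD, n = 5 and 4), a log2 difference of -0.75 ± 0.15 (adjusted p = 0.058, edgeR with Benjamini-Hochberg adjustment). Eif2ak2, the RNA-activated kinase that halts translation, averaged 43.3 ± 3.2 and 61.0 ± 13.4 CPM in knockout and heterozygous mice, a difference of -0.47 ± 0.09 (adjusted p = 0.054, edgeR). Every knockout mouse lay below every heterozygous mouse for Eif2ak2, and the mice overlapped for Ifit1. Samd9l, an antiviral restriction factor, averaged 23.4 ± 3.42 CPM in knockout mice and 33.9 ± 6.58 CPM in heterozygous mice, a difference of -0.52 ± 0.11, and in unbound RNA it fell by 0.60 on the log2 scale (adjusted p = 0.012, edgeR). Ifi27l2a, Oasl1 and Mx1 had differences of -0.94, -0.85 and -0.62, and Bst2, which tethers budding virus, had -0.44. Ifi27 was the single member above 0, at 0.22.

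Upstream of the effectors none of the 25 tested genes of the interferon pathway passed. None of 4 ligand genes, Ifnb1 among them, had enough counts to be tested. The receptor genes Ifnar1 and Ifnar2 differed by 0.02 and -0.01 on the log2 scale, and the 4 receptor genes had a median of 0.00. Of 9 signalling genes 8 were below 0, with a median of -0.14.

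Among the signalling genes the transcription factors Stat2 and Irf9 had differences of -0.39 and -0.23, and the kinase Jak1 -0.04. Predicted genes overlap Usp18, Oasl1 and Eif2ak2. The RNA sensors Ifih1 and Zbp1 had -0.51 and -0.74, and the 9 sensors had a median of -0.48. Usp18, which removes Isg15 from proteins and damps receptor signalling, had -0.72 ± 0.19 (adjusted p = 0.21, edgeR). Ifi204, of the Ifi200 family of DNA-binding interferon-induced proteins, ran from 4.34 to 11.9 CPM in knockout mice and from 14.8 to 31.0 CPM in heterozygous mice, a difference of -0.93 ± 0.19 (adjusted p = 0.077, edgeR). In class I antigen presentation the proteasome subunit gene Psmb9 had -0.76, with Tap1 overlapping it, while the heavy chains H2-K1 and H2-D1 had 0.03 and -0.02.

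**Figure D2:**
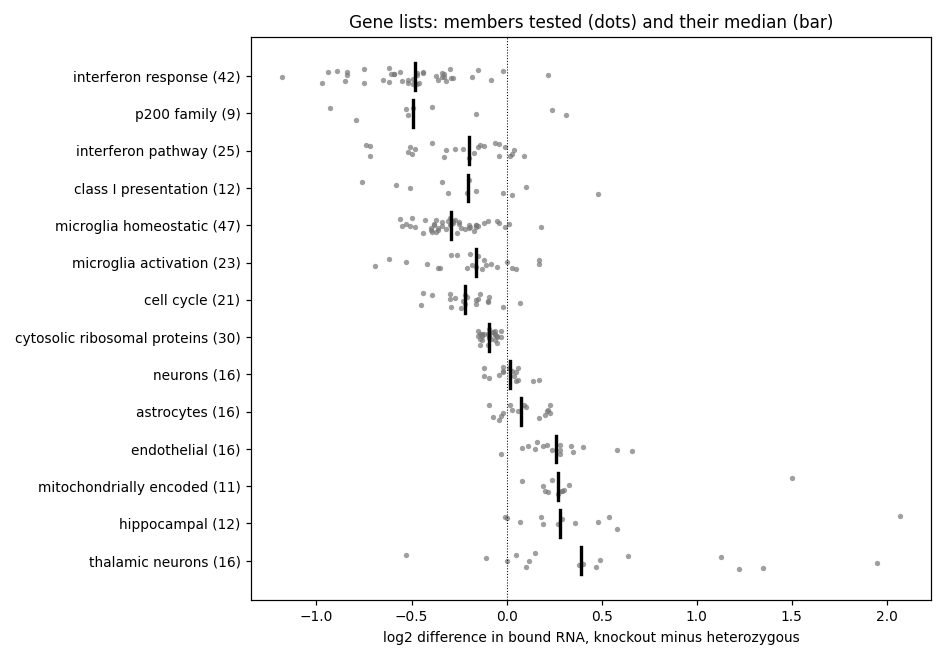
Log2 differences in bound RNA, knockout minus heterozygous, for the tested members of 14 gene lists; each dot is a gene, the bar is the list median, and the number tested stands in parentheses. Interferon-response genes centre at -0.48 and homeostatic microglial genes at -0.29, while neuronal genes centre at 0.02.

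The interferon-response genes were also compared within each condition. Among deprived libraries 9 of the 42 genes were called lower (0.0969% of all genes were), all 42 were below 0 and the median was -0.82. Among control libraries none was called in edgeR (0.0306% of all genes were called lower), 7 were lower at an unadjusted p under 0.05 (4.82% of all genes) and the median was -0.13. The genes called lower in deprived libraries were Isg15, Oasl2, Rtp4, Oas1a, Oasl1, Ifit1, Ifitm3, Eif2ak2 and Oas1g, and outside this list the sensor gene Ifih1 and Ifi204 were also called. The test of the difference itself, deprived minus control, called 1 of the 42, Ifi27, at -0.96 (0.51% of all genes were called), and 29 of them had an unadjusted p under 0.05 against 17.2% of all genes. Ifi27 passed in 5 of 18 fits that left out 1 library, and this test called 0 genes at all without the deprived piece of heterozygous mouse 15 or without piece R of mouse 21. Averaged over condition Ifi27 was the single member above 0. It was below 0 in deprived libraries, as all 42 were, and so above 0 in control libraries. Its call thus rests in part on a higher knockout level in control pieces.

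Summed over the interferon response list, deprived pieces held 490 to 660 CPM in knockout mice (589 ± 71.7, SD, n = 5) and 805 to 1260 CPM in heterozygous mice (1050 ± 196, n = 4 libraries of 3 mice). Control pieces held 510 to 709 CPM in knockout mice (597 ± 81.3, n = 5) and 590 to 883 CPM in heterozygous mice (710 ± 124, n = 4 libraries of 3 mice). The deprived sums did not overlap and the control sums did. In the 2 heterozygous mice with both conditions the deprived piece was higher, 805 against 590 CPM in mouse 14 and 991 against 697 CPM in mouse 15. The highest sums came from mouse 17, 1260 and 1140 CPM, which has no control piece, so condition and mouse cannot be told apart there.

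**Figure D3:**
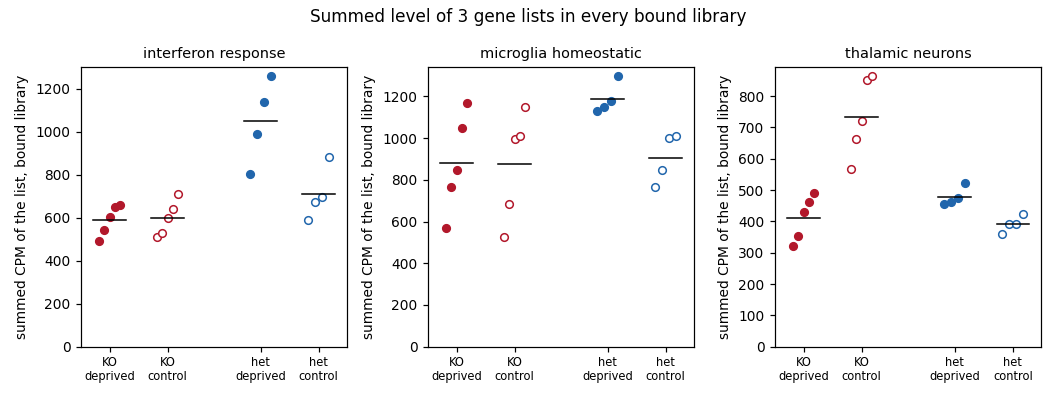
Summed CPM of the interferon-response, homeostatic microglial and thalamic-neuron lists in each bound library, in the column order knockout deprived, knockout control, heterozygous deprived and heterozygous control. Interferon sums of deprived pieces stay at or under 660 CPM in knockout mice and start at 805 CPM in heterozygous mice; homeostatic sums overlap between genotypes.

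Most homeostatic microglial genes also had a lower level in knockout bound RNA, and none of them passed. Of 47 tested, 45 were below 0, 13 were lower at an unadjusted p under 0.05 (3.43% of all genes were) and the median was -0.29. In none did all knockout mice lie below all heterozygous mice. The median was -0.58 in deprived and -0.04 in control libraries. The summed level in deprived pieces was 567 to 1170 CPM in knockout mice and 1130 to 1300 CPM in heterozygous mice. Its group mean was highest in heterozygous deprived pieces, as was that of the interferon-response sums. The sums were not compared mouse by mouse, and the part of the homeostatic level in the interferon difference was not tested.

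Csf1r, the receptor microglia need to survive, shows the spread among knockout mice. Over the 2 libraries of a mouse it was 14.3, 20.2, 28.4, 34.9 and 43.2 CPM in knockout mice 7, 12, 18, 19 and 22, against 37.1, 37.8, 41.7 and 26.2 CPM in heterozygous mice 14, 15, 17 and 21. The purinergic receptor gene P2ry12 was 5.62, 11.8, 18, 19.2 and 18.9 CPM in the same knockout mice, against 22.2, 18.4, 20.5 and 11.4 CPM in heterozygous mice. Knockout mouse 7 lay below every heterozygous mouse for both genes and mouse 12 for Csf1r, while the other 3 knockout mice lay within or above the heterozygous range. The differences were -0.29 ± 0.21 for Csf1r and -0.25 ± 0.25 for P2ry12 (adjusted p = 0.8 and 0.88, edgeR). Tmem119, a microglial membrane protein gene, had -0.31 ± 0.24. Exons of Hmgxb3 overlap Csf1r, and those of Med12l overlap P2ry12. Without knockout mouse 7 the list median was -0.15. Of the microglial transcription factors, 7 of 7 were below 0 with a median of -0.39. One of them, Sall1, which sets microglial identity, averaged 42.6 ± 6.49 CPM in knockout mice and 53.1 ± 4.53 CPM in heterozygous mice, a difference of -0.32 ± 0.09 (adjusted p = 0.27, edgeR). Genes of microglial activation had a median of -0.16 averaged over condition, with Gpnmb at -0.62 and the chemokine gene Ccl3 at -0.69, neither past the threshold. The sign of this median turned with condition. It was -0.32 in deprived libraries, with 23 of 23 genes below 0, and 0.11 in control libraries, with 8 of 23 below 0.

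**Figure D4:**
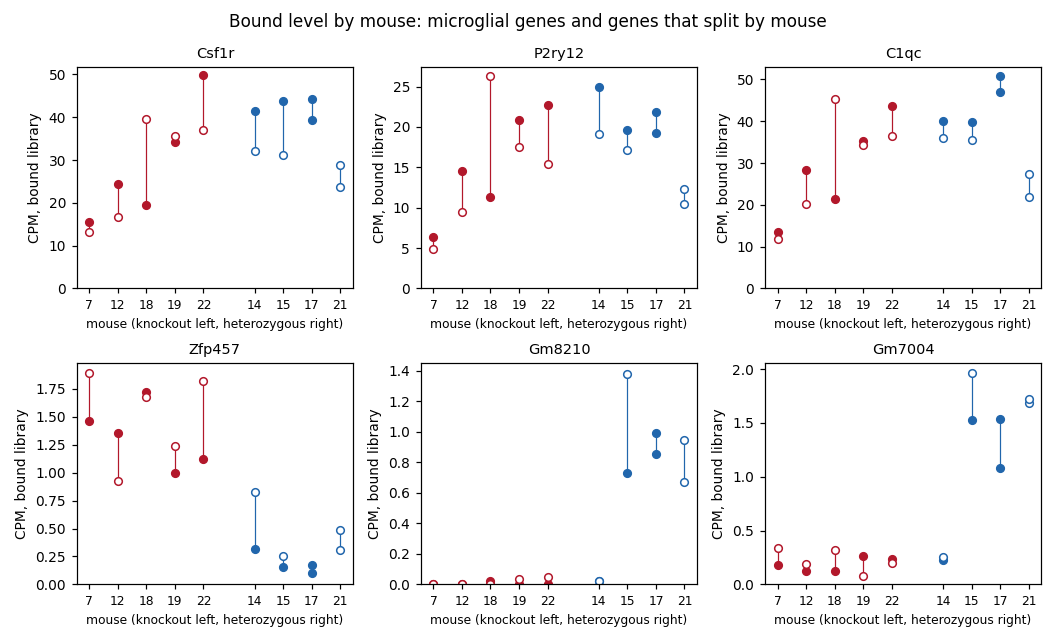
Csf1r, P2ry12, C1qc, Zfp457, Gm8210 and Gm7004 in CPM for each mouse, with a line between its 2 bound libraries; knockout mice 7, 12, 18, 19 and 22 stand left and heterozygous mice 14, 15, 17 and 21 right. Csf1r runs from 14.3 to 43.2 CPM among knockout mouse means, and heterozygous mouse 14 stands with the knockout mice for Gm8210 and Gm7004.

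Zfp457, a KRAB zinc-finger gene on chromosome 13 (GRCm38 chr13:67288138-67306485, minus strand), rose in knockout bound RNA. It had 0.922, 1.41 and 1.89 CPM in knockout libraries (lowest, median and highest), against 0.105, 0.279 and 0.831 CPM in heterozygous libraries, with no overlap. The difference was 2.24 ± 0.26 on the log2 scale (adjusted p = 2.1e-04, edgeR with Benjamini-Hochberg adjustment; 0.007 with the mouse block and 0.23 over summed mice), and 1.75 ± 0.23 in unbound RNA. It passed in every one of the 18 fits without 1 library and the 9 without 1 mouse.

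Zfp457 lies in a cluster of related zinc-finger genes, and the surrounding window of 1 Mb on each side was examined after its value was seen, as a description. Of 44 tested genes there, 21 had an unadjusted p under 0.05 (47.7%, against 7.47% of all genes), 13 of them lower and 8 higher. Zfp429 averaged 1.06 ± 0.485 CPM in knockout mice and 2.85 ± 0.332 CPM in heterozygous mice, a difference of -1.41 ± 0.27 (adjusted p = 0.053, edgeR), while Zfp65 averaged 24.8 ± 2.22 and 19.8 ± 0.899 CPM in knockout and heterozygous mice, a difference of 0.33 ± 0.07 (adjusted p = 0.068, edgeR). Zfp874a had -0.84 ± 0.18 in bound RNA and in unbound RNA fell by 0.82 (adjusted p = 0.012, edgeR). Neighbours thus differed in both directions, and in 7 of the 44 all knockout mice lay below, in 4 all above, the heterozygous mice (0.791% and 0.617% of all genes tested). These genes are near-identical in places, so the split of reads between them is uncertain. Srd5a1, steroid 5-alpha reductase, also on chromosome 13, averaged 11.4 ± 2.21 CPM in knockout mice and 16.8 ± 1.06 CPM in heterozygous mice (difference -0.56 ± 0.11, adjusted p = 0.053, edgeR; in unbound RNA -0.54 ± 0.09, adjusted p = 0.014).

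**Figure D5:**
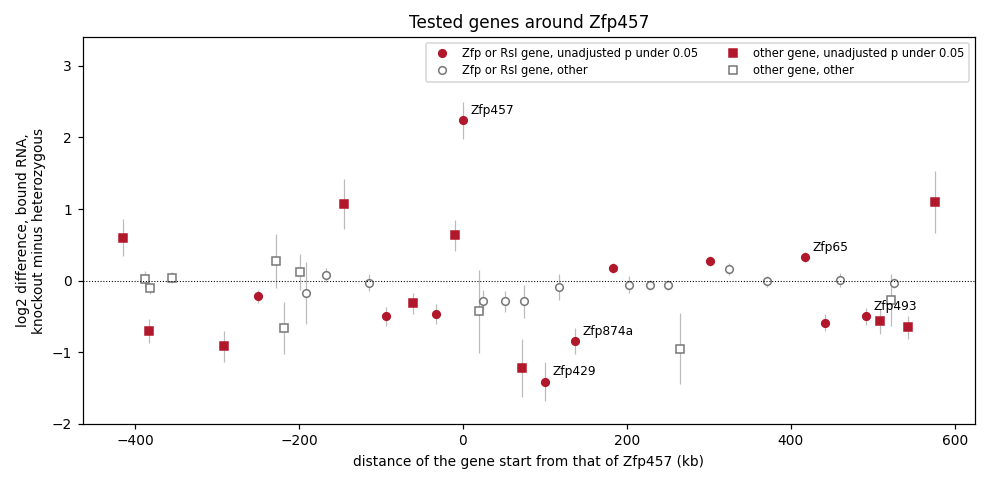
Log2 difference in bound RNA (knockout minus heterozygous, bars are SE) of the 44 tested genes within 1 Mb of the Zfp457 start, against distance in kb; circles are Zfp or Rsl genes, squares other genes, and red marks an unadjusted p under 0.05. Zfp457 stands highest of the red circles at 2.24, and Zfp429 is at -1.41.

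Of the called genes, the rare transcripts Gm8210 and Gm7004 split by mouse within the heterozygous line. The processed pseudogene Gm8210 had 5 counts over the 10 knockout libraries, against 248 over the 8 heterozygous libraries. Within the heterozygous line mouse 14 had 2 counts in 2 libraries and mouse 15 had 86, so mouse 14 stood with the knockout mice. Its adjusted p was 0.0013 in edgeR and 0.33 with the mouse block. Gm7004 had 0.0765 to 0.339 CPM in knockout libraries, against 0.227 and 0.252 CPM in mouse 14 and 1.08 to 1.96 CPM in the other heterozygous libraries, with an adjusted p of 0.004 in edgeR and 0.26 with the block. Vmn1r55 had 123 counts over knockout libraries and 15 over heterozygous libraries (adjusted p = 0.023, edgeR; 0.16 with the block), and Gm47692 overlaps it. Gm49980 averaged 5.26 ± 0.976 CPM in knockout mice and 2.35 ± 0.968 CPM in heterozygous mice, a difference of 1.21 ± 0.17 (adjusted p = 0.003, edgeR, and 0.0079 with the block). For both Vmn1r55 and Gm49980 every knockout mouse lay above every heterozygous mouse, a pattern found in 0.617% of all genes tested. Mouse values were 0.218 to 0.33 against 0.0109 to 0.0836 CPM for Vmn1r55, and 3.98 to 6.44 against 1.38 to 3.54 CPM for Gm49980.

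Tcf7l2, a Wnt-pathway transcription factor that is abundant in thalamic neurons, rose through control pieces. It had 99.4, 173, 121, 91.7 and 25.2 CPM in the control pieces of knockout mice 7, 12, 18, 19 and 22, against 16.7, 11.7, 18.8 and 16.6 CPM in heterozygous control pieces. In deprived pieces it had 12.6 to 16.3 CPM in knockout mice, against 15.7 to 19.5 CPM in heterozygous mice. Knockout control pieces lay above every other bound library, and deprived pieces were lower in knockout than in heterozygous medians with an adjusted p of 0.8. The averaged difference was 1.22 ± 0.22 (adjusted p = 0.028, edgeR with Benjamini-Hochberg adjustment; 0.43 with the mouse block), and that in deprived minus that in control pieces was -2.91 (adjusted p = 0.023). The averaged call was kept in 9 of 18 fits without 1 library and in 2 of 9 without 1 mouse. That difference passed in 16 of 18 fits without 1 library. Of the other 15 thalamic-neuron markers, Tcf7l2 left out, 13 were above 0 and none was called averaged over condition. Their median was 0.38 averaged, -0.42 in deprived and 0.81 in control pieces, and 6 of the 15 were called higher in control pieces (0.189% of all genes were). Hippocampal markers had 0.28 averaged, -0.17 in deprived and 0.68 in control pieces. The part of either tissue in the Tcf7l2 difference was not tested. Of 46 tested Wnt-pathway genes Tcf7l2 alone was called, and the median was 0.09.

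The same contrast in unbound RNA called 13 of 19278 genes (0.0674%). Cx3cr1, Gm8210, Zfp457, Gm7004, Gm49980 and Tcf7l2 were called in both fractions and in the same direction, 6 of the 11 bound and 6 of the 13 unbound calls. Isg15, Oasl2, Rtp4 and Oas1a were not called in unbound RNA, where their differences were -0.64, -0.80, -0.39 and -0.54. Vmn1r55 had too few counts in unbound RNA to be tested, 33 over the 10 knockout and 25 over the 8 heterozygous libraries. The 42 interferon-response genes had a median of -0.36 there, with 39 below 0. The difference between the fractions was tested in all 36 libraries, and edgeR called none of 20676 genes (0%; 712 at an unadjusted p under 0.05; DESeq2 also called none). For the interferon-response list bound minus unbound had a median of -0.09, so the genotype difference was not shown to be particular to bound RNA.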

How the data were processed

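Bound (TRAP) and unbound RNA of both microglial lines was sequenced; 1 count table per line was used. The values are whole-number read counts per gene as the authors deposited them. Per the submitters' processing notes, the build is GRCm38 and the tools include featureCounts 2.0.0, FastQC 0.11.9, HISAT2 2.2.0, Trim Galore 0.6.4 and cutadapt 2.9; strand settings are not given in the sources used here. The tables were joined by gene ID over 45681 genes. The 9704 genes held by the knockout table alone had no count there and 1 gene of the heterozygous table was left out.

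In R 4.3.3, edgeR 4.0.16 was fitted to the counts (TMM scaling, filterByExpr by group, quasi-likelihood F test, two-sided, Benjamini-Hochberg adjustment over all genes tested, threshold 0.05), with a 4-group model of the 18 bound libraries, the contrast averaging deprived and control. Log2 differences are knockout minus heterozygous. Levels are TMM-scaled CPM, and mouse values sum the 2 libraries. The script was tested on simulated counts. Alternatives were the sum per mouse, the mouse as a random block (limma 3.58.1, voom), DESeq2 1.42.0, no filter, each library or mouse left out, and fits by condition. The labels give both libraries of a piece and both pieces of an animal the same mouse number, so the numbers pair the samples by animal. Deviations of a mouse's 2 bound libraries correlated above 0.1 in 4 of 5 knockout and 2 of 4 heterozygous mice. Heterozygous mice 17 and 21, whose 2 pieces fall in the same group, had -0.214 and -0.26. Deviations from a shared group mean lean below 0 by construction, so these 2 values cannot be set against 0.1. Replicates are separate mice, and pieces of a mouse are not.

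Members and lists were chosen with earlier results of these data known. Genes named are all past the threshold, up to 12 per direction by smallest p among the rest (mean log2 CPM of at least 1), and from each list up to 4 by smallest p and 2 by level, besides always Cx3cr1, Tcf7l2, Isg15, Oasl2, P2ry12, Tmem119 and Csf1r; other named genes were chosen after their values were seen. Some genes are not reported here. Totals limit counting precision for rare genes; the unbound libraries had 34622580 to 56689296 counts in knockout and 32772368 to 50712333 in heterozygous mice. Gene positions are GENCODE vM21.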

Additional observations from a re-analysis of the deposited data

Results flagged for a closer look

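Of 56 groups of 4 or 5 bound libraries checked, 6 held a sample far from the others, and chance gives about 1 in 20. The check covered some of the named genes and not the rest. These were Tcf7l2 in the third heterozygous deprived library (19.5 CPM), Gm8210 in the deprived piece of knockout mouse 18 (0.0212 CPM), Gm7004 in the first heterozygous control library (0.252 CPM), Gm49980 in the second heterozygous deprived library (2.6 CPM), Vmn1r55 in the third heterozygous control library (0.0217 CPM) and Tmem119 in the third heterozygous deprived library (7.93 CPM). Gm8210 and Vmn1r55 are so rare that such a value is a few counts.

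For 5 named genes besides Ifi27, given above, the genotype difference depended on condition, by the edgeR test of the difference itself with Benjamini-Hochberg adjustment. The difference in deprived minus that in control pieces was -2.91 on the log2 scale for Tcf7l2, -4.74 for the thalamic factor Lhx9, -0.88 for Car10, a carbonic anhydrase-related gene, -2.5 for Slitrk6, a neuronal membrane protein gene, and -3.93 for Zic4, a zinc-finger factor. Of 18 fits without 1 library, Tcf7l2 passed in 16, Slitrk6 in 14, Lhx9 in 11, Zic4 in 11 and Car10 in 7, and over all genes there were 0 calls without the deprived piece of heterozygous mouse 15 or piece R of mouse 21, and 1 without the control piece of knockout mouse 12. Lhx9 had 0.36 to 16.4 CPM in deprived and 10.9 to 37.4 CPM in control pieces of knockout mice, against 6.72 to 13.8 CPM in deprived and 0.554 to 1.87 CPM in control pieces of heterozygous mice.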

How the results depend on the processing

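Bound RNA gave 11 calls as reported, 143 with no filter on low counts, 71 with DESeq2's Wald test, 27 with voom sample weights, 1 over summed mice, 7 with the mouse block, 6 with 2 genotype groups, 43 in control and 22 in deprived libraries, 63 in a fit of all 36 libraries and 1 with heterozygous mice 14 and 15 only. Leaving out 1 library gave 7 to 31 calls and 1 mouse 3 to 47: 3 without heterozygous mouse 17, 3 without mouse 21 and 47 without mouse 14. Unbound RNA gave 13 calls, 130 with no filter, 64 with DESeq2, 3 over summed mice, 8 with the mouse block and 11 to 28 without 1 library. Bound minus unbound gave 0 and 1 with no filter. Deprived minus control gave 100 calls, 576 with no filter, 734 with DESeq2, 417 with the mouse block, 4 with heterozygous mice 14 and 15 only and 0 to 441 without 1 library. The cause of these changes was not tested. The Tcf7l2 difference turned to -0.23 in deprived libraries alone. Of the values of single named genes, 6375 kept their side of the threshold, 6242 of them with the same sign and 133 with the sign turned while not past it, 30 of these in deprived and 27 in control libraries alone; 159 newly passed, 89 no longer passed and 1 called value reversed. Over 39 alternatives the interferon-response median ran from -0.82 to -0.13 and the homeostatic median from -0.58 to -0.04. Genes of few counts, such as Gm8210, are limited by depth.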

Other observations

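The gene groups given here had smaller median differences than the interferon-response list. Of 16 endothelial genes 15 were above 0 in knockout bound RNA, 6 of them at an unadjusted p under 0.05 (4.05% of all genes were higher at that level), with a median of 0.26 and none called. Slco1a4, a transporter of brain vessels, averaged 3.09 ± 0.711 CPM in knockout mice and 1.98 ± 0.715 CPM in heterozygous mice, a difference of 0.66 ± 0.2 on the log2 scale (adjusted p = 0.31, edgeR). All 11 tested mitochondrially encoded genes were above 0, with a median of 0.27 in bound and 0.11 in unbound RNA and none called. Of these, 7 were higher in bound RNA at an unadjusted p under 0.05, against 4.05% of all genes. Of 21 cell-cycle genes 20 were below 0, with a median of -0.22 in bound and -0.02 in unbound RNA. In bound RNA 7 of them were lower at an unadjusted p under 0.05, against 3.43% of all genes, and none was called. Birc5, a mitotic regulator, had -0.44 ± 0.12 (adjusted p = 0.25, edgeR). All 30 cytosolic ribosomal protein genes were slightly below 0 averaged over condition, with a median of -0.09 in bound and 0.02 in unbound RNA. Within conditions, all 30 were below 0 in deprived bound libraries (median -0.20) and 11 of the 30 in control bound libraries (median 0.02).

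Gene classes that can differ between polyA and total RNA were also read. Histone genes of the replication-dependent kind, whose messages lack a polyA tail, had a median of -0.10 in bound RNA over 12 tested of 21 listed and of 0.19 in unbound RNA over 14 tested. In bound RNA 3 of the 12 were lower at an unadjusted p under 0.05, against 3.43% of all genes. Nuclear long noncoding RNAs had a median of 0.14 in bound and 0.01 in unbound RNA, and 4 of the 12 were higher in bound RNA at an unadjusted p under 0.05, against 4.05% of all genes, with Kcnq1ot1 at 0.46 ± 0.14. The part of the labelled RNA type in these differences was not tested.

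Astrocyte, oligodendrocyte-lineage and mural lists had medians of 0.08, -0.02 and 0.07. Border-macrophage markers, of cells that also use Cx3cr1, had a median of 0.10 averaged, -0.58 in deprived and 0.82 in control pieces over 14 tested genes, and none was called averaged over condition.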
